A study of Mus musculus with 8 samples.

Results

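De novo lipogenesis, the synthesis of fatty acids from acetyl-CoA, was examined in *Agpat3* WT and *Agpat3* KO liver through 10 genes: *Slc25a1*, *Acly*, *Acss2*, *Aacs*, *Acaca*, *Acacb*, *Fasn*, *Me1*, *Thrsp* and *Mid1ip1*. The genes were chosen by name for their place in the pathway, with earlier results of these data known. The shares of all genes given beside their counts are a description and not a test of the set. All 10 were found among the 22911 genes named on the array, through 19 probes, and all 19 probes were well above background on all 8 arrays.

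Fatty acid synthesis in the cytosol uses carbon that leaves the mitochondrion as citrate and is cleaved to acetyl-CoA. Acetyl-CoA carboxylase turns acetyl-CoA into malonyl-CoA, fatty acid synthase builds palmitate from both, and NADPH provides the reducing power. In liver these enzymes are known to be induced by feeding and insulin through SREBP1c, ChREBP and LXR, and their mRNA is known to fall on fasting. AGPAT3, an acyltransferase of the endoplasmic reticulum, places polyunsaturated fatty acids such as DHA into phosphatidic acid, a precursor of glycerophospholipids and triglycerides.

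The mice were males on the C57BL/6 background, 10 weeks old, 4 with intact *Agpat3* (WT) and 4 in which the gene is deleted in the whole body (KO), so the deletion was not limited to the liver. Each mouse gave 1 one-color array, and mice are numbered as in the labels. No treatment is named, and the feeding state at dissection is not given in the sources used here. All 8 arrays shared 1 slide, with WT in row 1 and KO in row 2, so row and genotype cannot be told apart. *Agpat3* itself fell by 6.12 on the log2 scale (standard error, SE, 0.14, limma adjusted p = 4.46e-07).

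Signals are given as log2 relative to the 75th percentile of all probes on the same array, so that a value of 0 is the level of the probe at that percentile. A difference is the KO mean minus the WT mean on this log2 scale. A probe was called when the fold change was over 1.5 and the adjusted p from limma, over all 29069 probes tested, was under 0.2. Where a gene had more than 1 probe, the brightest stands for it. Levels of different probes cannot be set against each other, so the genes are compared only by their differences between genotypes. In whole liver, a change in the number of cells of a type and a change in RNA per cell cannot be told apart.

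Of the 10 genes, 8 were called higher in KO liver and 0 lower. Of all 14067 genes tested by their brightest probe, 1.01% were called higher and 0.754% lower. By probe, 14 of the 19 were called higher and 0 lower, against 0.939% and 0.726% of all probes tested. The rises were about 4-fold for *Thrsp*, about 3.2-fold for *Fasn* and *Aacs*, 2.48-fold for *Acacb*, about 2-fold for *Acly* and *Acss2*, 1.80-fold for *Me1* and 1.58-fold for *Mid1ip1*. *Acaca* and *Slc25a1* were not called. In 9 of the 10 genes the lowest KO mouse lay above the highest WT mouse, which was so for 3.84% of all genes tested, and *Aacs* was the exception. The same separation was seen in 16 of the 19 probes, beside 3.69% of all probes tested. The exact two-sided permutation test over the 70 ways to split the mice gave p = 0.0286, the smallest it can give, for each of these 9 genes. Fully separated groups of 4 always give this value, so it restates the separation and adds no further support. The median difference of the 10 genes was 1.02, beside -0.03 for all genes tested. *Thrsp* held rank 16 and *Fasn* rank 24 of 14067 by the size of a rise, whereas *Slc25a1* held rank 1242.

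**Figure D1:**
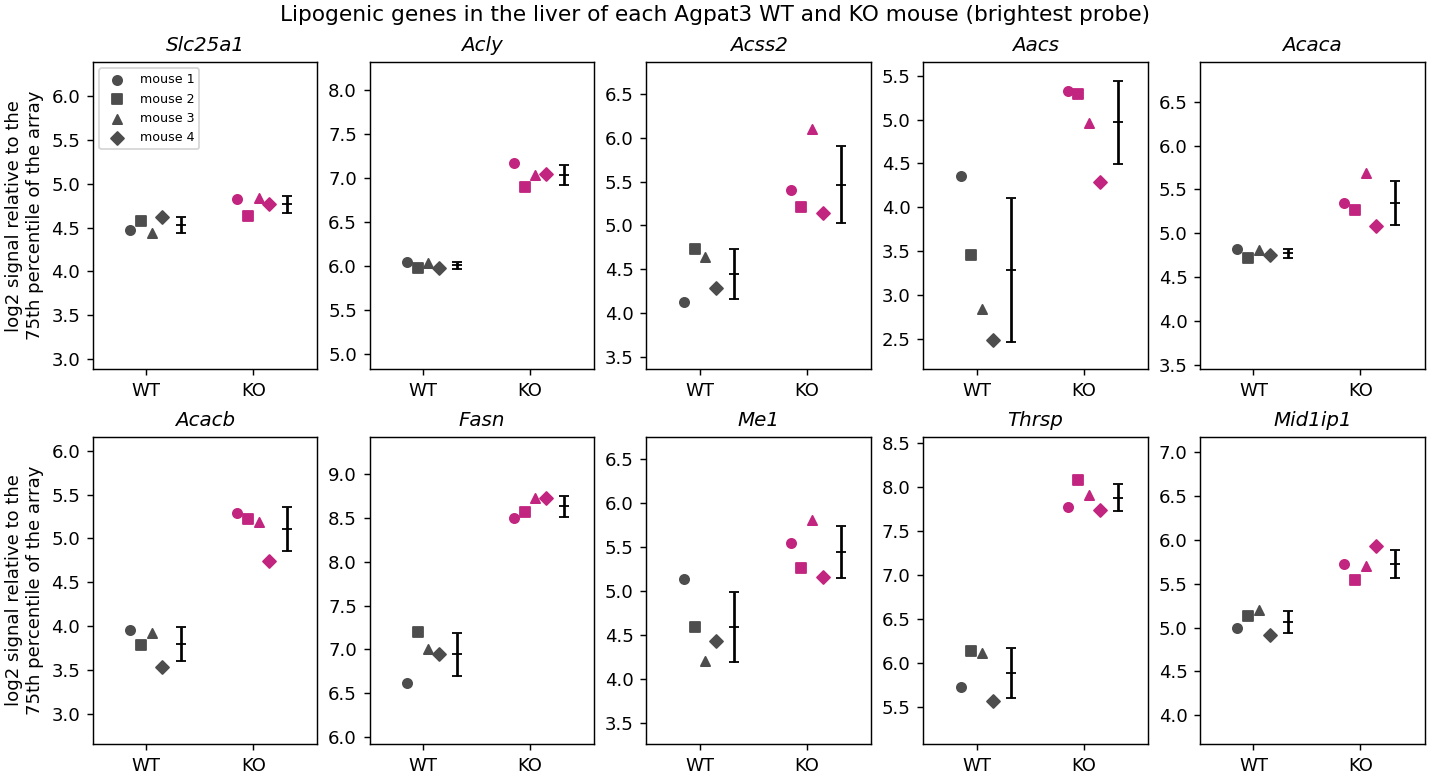
Log2 signal of the brightest probe of each of the 10 genes (y axis, the 75th percentile of the array being 0), with 1 point per mouse, 4 WT and 4 KO, and the mean and SD of each genotype beside them. The genotypes are farthest apart for *Thrsp*, with a gap of 1.61 between the highest WT and the lowest KO mouse, touch for *Slc25a1* and *Me1*, with gaps of 0.01 each, and overlap for *Aacs*.

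The stretch of 250 bases before the RefSeq transcription start (GRCm38.p6) was read for all 10 genes, 11 start sites in all because *Me1* has 2 of them, and searched on both strands for 4 short motifs known from lipogenic promoters. The windows of *Fasn* and *Thrsp* are shown because these genes changed most with separated groups, that of *Acacb* as the mitochondrial carboxylase, and that of *Slc25a1* as the gene of the set with the smallest difference. Capitals mark a match, in either orientation, to the NF-Y box, spelled CCAAT, to the GC box, which is known to bind SP1 and is spelled GGGCGG, or to the E-box, spelled CACGTG. Each is written 5′ to 3′ on the strand of the gene and ends at the base before the start.
*Fasn*, chr11:120824548-120824797, minus strand: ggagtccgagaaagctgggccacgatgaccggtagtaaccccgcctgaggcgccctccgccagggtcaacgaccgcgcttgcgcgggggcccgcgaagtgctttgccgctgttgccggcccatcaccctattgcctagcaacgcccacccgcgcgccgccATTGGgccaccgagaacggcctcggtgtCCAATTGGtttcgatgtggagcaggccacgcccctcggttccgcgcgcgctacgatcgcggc
*Thrsp*, chr7:97417551-97417800, minus strand: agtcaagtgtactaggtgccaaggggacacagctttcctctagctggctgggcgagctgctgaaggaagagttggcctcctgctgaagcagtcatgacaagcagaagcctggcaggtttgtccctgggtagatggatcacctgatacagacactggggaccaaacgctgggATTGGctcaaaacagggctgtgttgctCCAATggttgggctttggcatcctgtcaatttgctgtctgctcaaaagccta
*Acacb*, chr5:114165268-114165517, plus strand: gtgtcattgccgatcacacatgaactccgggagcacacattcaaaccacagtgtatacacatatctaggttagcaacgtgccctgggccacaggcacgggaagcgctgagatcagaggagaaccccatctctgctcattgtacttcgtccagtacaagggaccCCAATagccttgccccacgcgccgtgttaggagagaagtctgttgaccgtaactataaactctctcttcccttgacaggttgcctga
*Slc25a1*, chr16:17928220-17928469, minus strand: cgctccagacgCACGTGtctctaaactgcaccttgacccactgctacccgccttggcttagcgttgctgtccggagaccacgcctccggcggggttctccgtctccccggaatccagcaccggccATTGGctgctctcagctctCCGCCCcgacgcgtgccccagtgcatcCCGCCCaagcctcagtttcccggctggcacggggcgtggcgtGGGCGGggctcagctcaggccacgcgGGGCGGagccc

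*Fasn* held 3 matches to the NF-Y box, which begin 90, 62 and 59 bases before the start, the last pair sharing bases. *Thrsp* held NF-Y boxes at 79 and 52 bases, and *Acacb* one at 87 bases. *Slc25a1* held an E-box at 239 bases, an NF-Y box at 125 bases and GC boxes at 106, 79, 37 and 11 bases. Over the 11 start sites, an NF-Y box was found in 6 (*Acacb*, *Fasn*, *Acss2*, *Thrsp*, *Slc25a1* and the second start of *Me1*), beside 33.8% of 32851 mouse promoter windows of the same length. A GC box was found in 5 (*Acly*, *Acss2*, *Mid1ip1*, *Slc25a1* and the first start of *Me1*), beside 32.7%, and an E-box in 1, beside 6.02%. The spelling TCACNCCAC of the sterol regulatory element was found in 0 of 11, beside 1.05%. These are matches of letters only, and a gene such as *Acaca* or *Acacb* is known to use several promoters, of which the table lists a single start here.

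Among *Slc25a1*, *Acly*, *Acss2* and *Aacs*, fold changes ran from 1.18 for *Slc25a1*, which was not called, to 3.21 for *Aacs*. *Acly*, which encodes the ATP citrate lyase that cleaves cytosolic citrate, rose 2.04-fold, and *Acss2*, which encodes the enzyme that makes acetyl-CoA from acetate, rose 2.02-fold. *Acly* had log2 signals of 6.05, 5.97, 6.04 and 5.97 for WT mice 1 to 4 and 7.17, 6.90, 7.03 and 7.04 for KO mice 1 to 4. Its WT mice spread over a narrow range, and all KO mice lay well above them, with a difference of 1.03 (SE 0.07, limma adjusted p = 0.00206). The second probe gave 1.09.

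*Acss2* had log2 signals of 4.12, 4.73, 4.64 and 4.29 for WT mice 1 to 4 and 5.41, 5.22, 6.10 and 5.14 for KO mice 1 to 4. The groups did not overlap, and KO mouse 3 stood above the other KO mice. The difference was 1.02 (SE 0.23, limma adjusted p = 0.119), and the second probe gave 1.1. Without WT mouse 1, WT mouse 3 or KO mouse 1 the adjusted p was 0.215, 0.227 or 0.209, so the call was lost in each case.

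*Aacs*, whose product activates acetoacetate for lipid synthesis in the cytosol, rose 3.21-fold, with the widest spread of the set. Its signals were 4.36, 3.45, 2.84 and 2.48 for WT mice 1 to 4 and 5.33, 5.29, 4.96 and 4.29 for KO mice 1 to 4. The highest WT mouse, number 1, lay just above the lowest KO mouse, number 4. The difference was 1.68 (SE 0.41, limma adjusted p = 0.137), and the exact permutation test gave p = 0.0571. The WT SD of 0.82 was at percentile 99.1 of all genes tested. The call was lost without WT mouse 2 (adjusted p = 0.247), WT mouse 3 (0.308), KO mouse 1 (0.256), KO mouse 2 (0.283) or KO mouse 3 (0.222).

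*Slc25a1*, which encodes the mitochondrial citrate carrier, differed little between genotypes. Its signals were 4.47, 4.58, 4.43 and 4.62 for WT mice 1 to 4 and 4.82, 4.63, 4.84 and 4.77 for KO mice 1 to 4. Each KO mouse was above each WT mouse, by as little as 0.01, and the difference was 0.24 (SE 0.08, limma adjusted p = 0.248). The second probe also gave 0.24, with an adjusted p of 0.165, and its fold change of 1.18 by either probe was under the threshold. The difference in change between *Acss2* and *Aacs* was -0.66, with an exact permutation p of 0.286 (0.286 after Benjamini-Hochberg adjustment over the 3 pairs of genes compared), so these ligases were not shown to differ from each other in response.

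The acetyl-CoA carboxylases were read from 6 probes. *Acacb* encodes ACC2, the form at the outer mitochondrial membrane whose malonyl-CoA restrains fatty acid entry, and *Acaca* encodes ACC1, the cytosolic form that feeds fatty acid synthase. The brighter *Acacb* probe read 3.95, 3.79, 3.92 and 3.53 for WT mice 1 to 4 and 5.29, 5.22, 5.18 and 4.74 for KO mice 1 to 4. The groups were far apart, with a difference of 1.31 (SE 0.14, limma adjusted p = 0.0131). The dimmer *Acacb* probe did not show this, with signals of 0.43, 0.24, 0.45 and 0.63 in WT and 0.50, 0.58, 0.64 and 0.81 in KO. Its groups overlapped, its difference was 0.19 (SE 0.10, limma adjusted p = 0.481), and what the probes read in the transcript was not tested because their sequences are not used here.

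*Acaca* gave log2 signals of 4.83, 4.72, 4.81 and 4.75 for WT mice 1 to 4 and 5.35, 5.27, 5.68 and 5.08 for KO mice 1 to 4 by its brightest probe. The groups did not overlap, and the difference of 0.57 (SE 0.12, limma adjusted p = 0.107) was a 1.48-fold change, just under the threshold of 1.5. Of the other 3 probes, those with differences of 0.72 and 0.65 were called, and the probe with a difference of 0.53 (adjusted p = 0.277) was not. The call by the brightest probe therefore turned on small shifts: it was called without WT mouse 1 (0.59) or without KO mouse 4 (0.66).

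*Acacb* changed more than *Acaca* by their brightest probes, by 0.74 on the log2 scale (exact permutation p = 0.0286, the smallest that 4 against 4 mice can give, and 0.0429 after adjustment over the 3 pairs). With the mean of the probes of each gene this fell to 0.13 (adjusted p = 0.286, exact permutation test), which follows the disagreement of the *Acacb* probes.

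**Figure D2:**
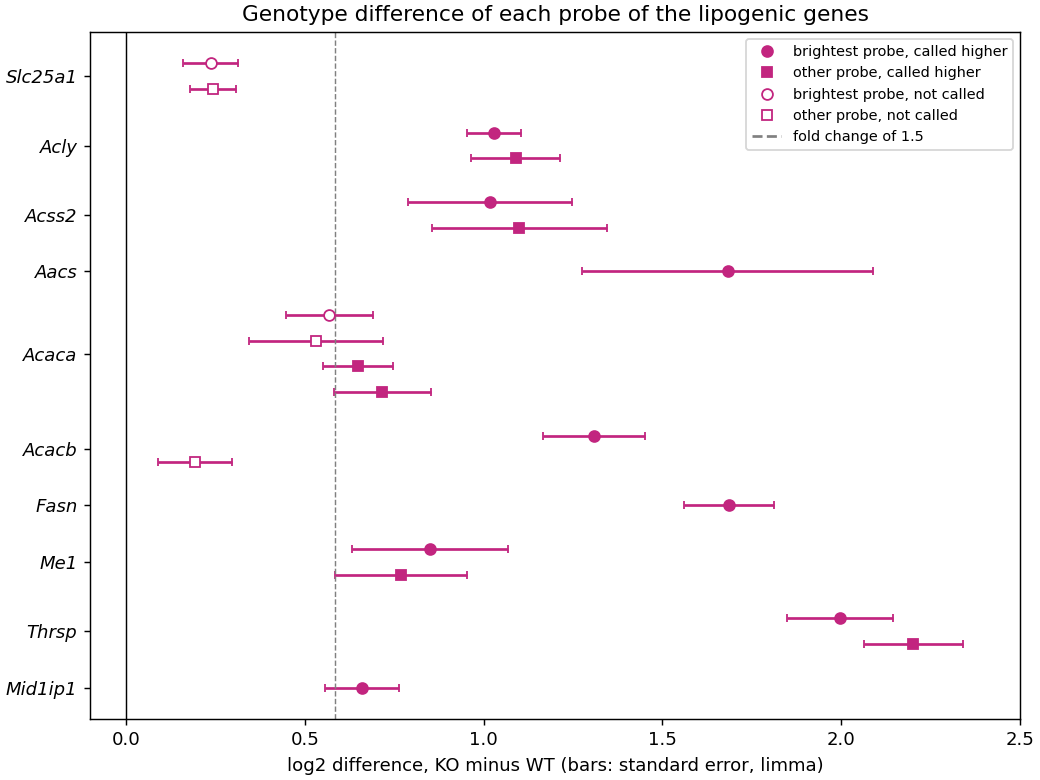
Difference between genotypes for each of the 19 probes (x axis, log2, KO minus WT) with its standard error from limma as bars, grouped by gene on the y axis. Circles are the brightest probe of a gene, squares its other probes, filled where called, and the dashed line is a fold change of 1.5. All probes lie to the right of 0, and the probes of *Acacb*, at 1.31 and 0.19, are the pair of one gene farthest apart.

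*Fasn* encodes fatty acid synthase, the multifunctional enzyme that assembles palmitate. Its single probe gave log2 signals of 6.62, 7.20, 7.01 and 6.95 for WT mice 1 to 4 and 8.49, 8.57, 8.73 and 8.73 for KO mice 1 to 4. The lowest KO mouse was 1.30 above the highest WT mouse. The difference of 1.69 (SE 0.13, limma adjusted p = 0.00206) was a 3.22-fold rise, and it lay between 1.58 and 1.77 when any 1 mouse was left out.

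*Me1* encodes the cytosolic malic enzyme, which yields NADPH as malate is turned into pyruvate. Its signals were 5.14, 4.59, 4.21 and 4.43 for WT mice 1 to 4 and 5.55, 5.26, 5.81 and 5.16 for KO mice 1 to 4. WT mouse 1 came within 0.01 of the lowest KO mouse, while the other WT mice were clearly lower. The difference was 0.85 (SE 0.22, limma adjusted p = 0.155), and the second probe gave 0.77 (adjusted p = 0.134). The call was lost without WT mouse 2 (adjusted p = 0.288), WT mouse 3 (0.326), WT mouse 4 (0.217), KO mouse 1 (0.272), KO mouse 2 (0.249) or KO mouse 3 (0.253).

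*Thrsp* encodes a small nuclear and cytosolic protein named for its response to thyroid hormone, and *Mid1ip1* encodes its paralog, which is known to promote the polymerization of acetyl-CoA carboxylase. *Thrsp* changed most of the 10 genes. Its signals were 5.73, 6.13, 6.11 and 5.56 for WT mice 1 to 4 and 7.78, 8.09, 7.91 and 7.75 for KO mice 1 to 4. No KO mouse came within 1.5 log2 units of any WT mouse, and the difference was 2.00 (SE 0.15, limma adjusted p = 0.00206). The second probe gave 2.20 (adjusted p = 0.000957), a 4.60-fold rise.

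*Mid1ip1* had signals of 5.0, 5.13, 5.20 and 4.92 for WT mice 1 to 4 and 5.72, 5.54, 5.70 and 5.93 for KO mice 1 to 4. The groups did not overlap, and the difference was 0.66 (SE 0.10, limma adjusted p = 0.0454). The change of *Thrsp* exceeded that of its paralog by 1.34 on the log2 scale (exact permutation p = 0.0286, 0.0429 adjusted over the 3 pairs). With the mean of the *Thrsp* probes the excess was 1.44, at an adjusted p of 0.0857 by the same exact test, because the adjustment over the 3 pairs then rested on this pair alone.

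The mice of a genotype did not rank alike across the 10 genes. WT mouse 1 had the highest WT signal for *Acly*, *Acaca*, *Acacb*, *Me1* and *Aacs* and the lowest for *Fasn* and *Acss2*. WT mouse 2 was highest for *Fasn*, *Acss2* and *Thrsp* and lowest for *Acly* and *Acaca*. KO mouse 3 was the highest KO mouse for 5 genes and the lowest for 0, and KO mouse 4 the lowest for 6. Averaged over the genes, a mouse deviated from the mean of its genotype by between -0.18 (WT mouse 4) and 0.16 (KO mouse 3). In this average, deviations of opposite sign cancel. Those of single genes were larger, up to 1.07 for *Aacs* in WT mouse 1 and 0.63 for *Acss2* in KO mouse 3. Dixon's test at the 95% level set no mouse apart in any of the 22 groups examined, those of the 10 genes and *Agpat3* in each genotype. With 4 mice per group this test has little power, so it cannot show that no mouse stood apart.

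**Figure D3:**
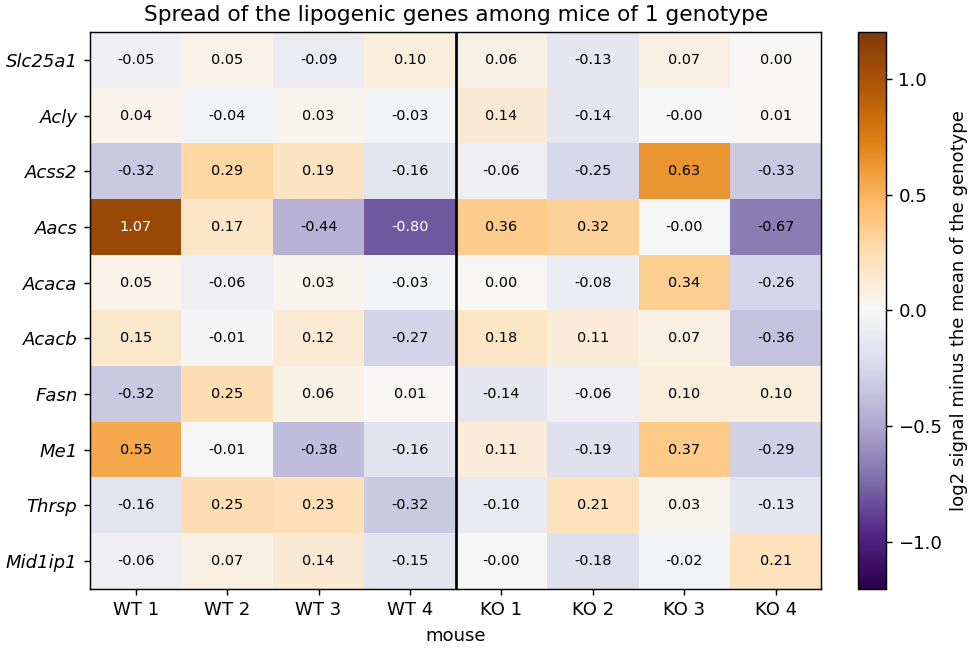
Deviation of each mouse from the mean of its genotype (color and printed value, log2) for the brightest probe of the 10 genes, with mice on the x axis and genes on the y axis. The widest cells belong to *Aacs*, from -0.80 in WT mouse 4 to 1.07 in WT mouse 1, and *Acss2* stands out in KO mouse 3 at 0.63, whereas *Acly* stays within 0.14 of the mean in every mouse.

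Genes around the pathway were described through 10 lists. Among enzymes that elongate and desaturate fatty acids beyond palmitate, 5 of 14 were called higher and 0 lower, with a list median of 0.35: *Elovl5* (1.02), *Fads2* (0.97), *Scd1* (0.97), *Scd2* (0.92) and *Fads1* (0.74). *Fads1*, *Fads2* and *Elovl5* act on polyunsaturated fatty acids, and *Scd1* and *Scd2* encode stearoyl-CoA desaturases. The call of *Scd1* was lost without WT mouse 2 (adjusted p = 0.203), WT mouse 3 (0.228) or the filter on dim probes (0.220), and that of *Scd2* without WT mouse 3 (0.208) or the filter (0.210). *Elovl6*, which extends palmitate itself, had a difference of 0.86 at an adjusted p of 0.237 from limma and was not called, though it was under normexp (0.173) and with the replicate number as a block (0.113). *Elovl3* pointed the other way, at -0.98 (adjusted p = 0.28 from limma), and was not called either, except with that block (0.153).

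Of 11 tested genes for NADPH supply other than *Me1*, 3 were called higher and 0 lower, with a median of 0.15. These were genes of the pentose phosphate pathway: *G6pdx* (1.06), *Rpia* (0.88) and *Pgd* (0.62). Other genes of that pathway were not called: *Tkt* (0.30), *Rpe* (0.11), *Taldo1* (-0.03) and *Pgls* (-0.04). The call of *G6pdx* was lost without WT mouse 1 (adjusted p = 0.203), WT mouse 2 (0.226), WT mouse 3 (0.242) or the filter on dim probes (0.256). That of *Pgd* was lost on the adjusted p without WT mouse 3 (0.244), KO mouse 1 (0.204) or the filter (0.255), and on the fold change without WT mouse 1 (0.54), without KO mouse 3 (0.52) and under median normalization (0.58). Of 16 further genes of the citrate shuttle and of acetyl-CoA supply, 1 was called, *Acss3* (1.00), a mitochondrial acyl-CoA synthetase, and the list median was 0.08. Under normexp its difference was 0.35 and it was not called. *Gpam*, which starts glycerolipid synthesis in mitochondria, was the 1 gene called of 11 for glyceride synthesis (1.07, list median 0.13), and *Pklr*, the liver pyruvate kinase, the 1 of 10 for glucose use and ChREBP targets (0.84, list median 0.27). The call of *Pklr* was lost without WT mouse 2 (adjusted p = 0.203), WT mouse 3 (0.228) or the filter (0.220).

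Over all genes tested, 14% had an unadjusted p under 0.05 and few were called, so that a count of 0 called is close to the background for lists of this size. Of 8 tested genes for malonyl-CoA removal and carnitine entry, 0 were called by limma, with a median of -0.02 and 1 gene at an unadjusted p under 0.05. Of 12 kinases and ligases that act on lipogenic enzymes, 0 were called, with a median of -0.06 and 2 genes at an unadjusted p under 0.05. Of 7 tested ketone body enzymes, 0 were called, with a median of -0.02 and 0 at an unadjusted p under 0.05. Of 15 fasting genes, 0 were called, with a median of 0.41 and 3 at an unadjusted p under 0.05. An unpaired t test with adjustment called 0 genes in each of these lists too.

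**Figure D4:**
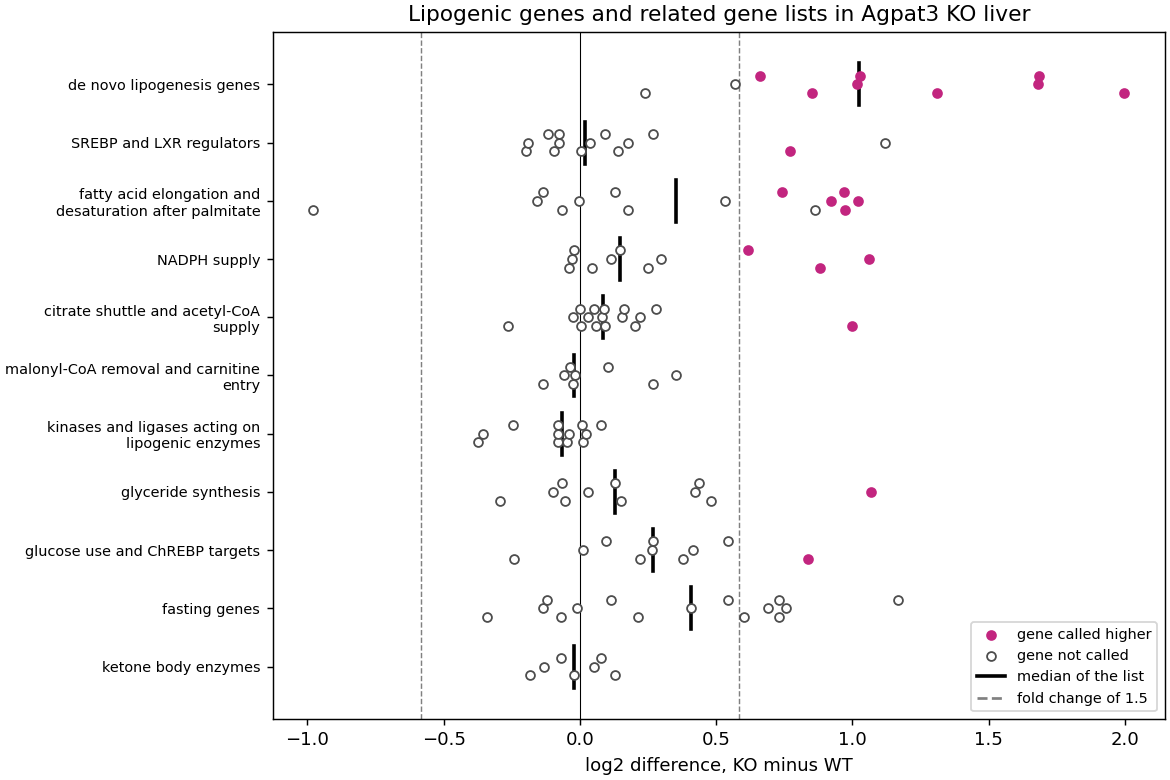
Difference between genotypes of each tested gene (x axis, log2, KO minus WT, brightest probe), 1 row per list, with the lipogenic genes in the top row. Filled points were called, the black bar is the list median and the dashed lines mark a fold change of 1.5. The median is 1.02 for the lipogenic genes, 0.41 or lower in the other lists, and 0 genes were called lower.

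Of 14 regulators of the SREBP and LXR axis, 1 was called higher and 0 lower, with a median of 0.02. *Srebf1*, which encodes SREBP1, had signals of 6.08, 6.72, 6.63 and 6.14 for WT mice 1 to 4 and 6.89, 6.87, 7.42 and 7.47 for KO mice 1 to 4. Its groups did not overlap and its difference was 0.77 (SE 0.20, limma adjusted p = 0.168), but the call was lost when any 1 mouse was left out (adjusted p from 0.205 to 0.284). *Insig1*, an SREBP target that retains the SREBP complex in the endoplasmic reticulum, had a difference of 1.12 (SE 0.33, limma adjusted p = 0.207) and was not called, although its groups did not overlap, with a gap of 0.25. It was called under normexp (adjusted p = 0.162), quantile normalization (0.191), eBayes with trend and robust options (0.187) and the replicate block (0.149), and without WT mouse 1 (0.183), where the difference was 0.78. The differences of *Mlxipl*, which encodes ChREBP, at 0.14, of *Scap* at 0.09 and of *Srebf2* at -0.20 were not called, nor was that of *Nr1h3*, the LXRα gene, at 0.04, which turned to -0.0012 when arrays were set on their medians.

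The genes whose signals followed the mean profile of the 8 called genes most closely over the 8 arrays were *1810008I18Rik*, at a root mean square distance of 0.160 log2 units, *Tdrkh* (0.178), *Pstpip2* (0.188), *Elovl5* (0.20) and *Fabp2* (0.202). The *Tdrkh* probe was well above background on 2 of the 4 WT arrays, and its difference of 1.25 was 0.32 under normexp, where it was not called. For comparison, the called genes, which form that mean, lay between 0.116 (*Acacb*) and 0.527 (*Aacs*) from it. Among them *Acly* lay at 0.186, *Fasn* at 0.302 and *Thrsp* at 0.400. Of the genes outside the mean, *Acaca* lay at 0.378 and *Slc25a1* at 0.545. The distance also depends on the size of the difference between genotypes, so it does not measure likeness among mice alone.

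Of 8 lists of cell type markers, 0 held a gene called by limma or by the unpaired t test with adjustment, and 0 to 2 genes of each list had an unadjusted p under 0.05 in limma. The summed linear signal of the 8 hepatocyte markers, in multiples of the 75th percentile of the array, was 4809 to 5140 in WT and 4890 to 4961 in KO. That of the 9 adipocyte markers on the array, of which 5 were tested, was 486 to 504 in WT and 401 to 500.1 in KO. Nearly all of it was *Car3*, which is also abundant in liver. The tested adipocyte markers without *Car3* summed to 5.40 to 7.72 in WT and 6.22 to 7.17 in KO. On 0 of the 8 arrays were *Adipoq*, *Plin1* and *Retn* of this list well above background. The pancreatic acinar markers summed to 44.1 to 56.8 in WT and 28.7 to 44.2 in KO, and most of that sum was *Cela1*. *Cela1* was lower in each KO mouse than in each WT mouse (-0.54, limma adjusted p = 0.292). Of the 6 tested acinar genes, 3 had a higher mean in KO, *Cela2a* (0.33), *Cel* (0.45) and *Clps* (0.15), and the median difference was 0.03. On 0 arrays were *Cela3b*, *Cpa1*, *Pnlip* and *Prss2* of the acinar list well above background. The stellate and fibroblast markers summed to 98.7 to 132.5 in WT and 96.2 to 102.2 in KO, most of it *Dcn*. Their median difference was -0.28, and *Pdgfrb* was separated in the same direction (-0.45, limma adjusted p = 0.311). *Lrat* went the other way (0.50, limma adjusted p = 0.272), alone among the 8 genes. WT mouse 2 had the highest WT signal for *Col1a1*, *Col1a2*, *Col3a1* and *Pdgfrb*. The part of these markers in the lipogenic values was not tested.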

How the data were processed

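Liver RNA of 4 *Agpat3* WT and 4 *Agpat3* KO mice was measured on one-color Agilent arrays, 1 per mouse. The authors deposited scanner output of Feature Extraction 10.7.1.1, whose processed signal is a linear intensity after background correction, and a table of log2 values, which matched the log2 of that intensity minus the 75th percentile of the array to a median absolute difference of 0.00289 to 0.00848 per array. Genotypes come from the labels. Control and outlier spots (86 to 150 per array) were left out, spots of a probe were averaged, log2 intensities were set on the 75th percentile, and the 29069 of 56605 probes that lay well above background on the 4 arrays of either genotype were tested with lmFit and eBayes of limma 3.58.1 (R 4.3.3, two-sided, Benjamini-Hochberg). The study's legends give the thresholds without saying whether p was adjusted. P-values measure the spread among these mice. Arrays have no read depth, and the number of arrays limits the precision. Accessions of 32994 probes matched a RefSeq symbol (GRCm38.p6). The scanner output names another build, so the coordinates given are those of the RefSeq promoters.

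The 10 genes, the 10 further gene lists and the 8 marker lists were chosen with earlier results of these data known. The text names the 10 genes, called genes of the lists and regulators of SREBP, ChREBP and LXR, with the 5 nearest profiles. The test was checked on simulated data. Alternatives were normexp background correction, median and quantile normalization, the authors' log2 values, other filters and thresholds, outlier spots kept, eBayes with trend and robust options, a replicate block, each mouse left out, an unpaired t test, and averaging a gene over its probes. Reading a gene from any called probe or its dimmest probe was added after the data were seen.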

Additional observations from a re-analysis of the deposited data

How the results depend on the processing

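All 10 genes kept a higher KO mean under every alternative run. The number of genes called, 8, was 5 without a filter on dim probes, at an adjusted p under 0.05 and by the unpaired t test with adjustment, 9 under normexp, and 5 to 9 when a mouse was left out, with 5 without WT mouse 3 or KO mouse 1. Without the filter, which adds probes to the adjustment, *Me1* (0.85, adjusted p = 0.354), *Acss2* (1.02, 0.280) and *Aacs* (1.68, 0.321) were not called. *Acaca* was called under normexp (0.61) and as the mean of its probes (0.62), and *Acacb* was not called by its dimmest probe (0.19). The pair differences with the mean of probes were 0.13 for the carboxylases and 1.44 for *Thrsp* against *Mid1ip1*.

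With a mouse left out, the differences lay between 0.98 and 1.08 for *Acly*, 0.46 and 0.66 for *Acaca*, 1.22 and 1.43 for *Acacb*, 1.58 and 1.77 for *Fasn*, 0.72 and 1.03 for *Me1*, 0.81 and 1.13 for *Acss2*, 1.89 and 2.08 for *Thrsp*, 0.59 and 0.72 for *Mid1ip1*, 0.21 and 0.28 for *Slc25a1* and 1.42 and 2.04 for *Aacs*.

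Over all probes, 484 were called (273 higher, 211 lower). The count was 246 under normexp (181 higher, 65 lower), run on the median spot signal because the files hold no mean, 253 without a filter, 117 at an adjusted p under 0.05, 160 at a fold change over 2, 1202 without a minimum fold, 269 by the adjusted and 929 by the unadjusted t test, and 257 to 645 with a mouse left out (306 without WT mouse 2, 257 without WT mouse 3, 291 without KO mouse 2). With the replicate number as a block it was 592, and the calls of the 10 genes did not change. In that fit the SE of *Aacs* fell to 0.20 (limma adjusted p = 0.0692) and that of *Mid1ip1* rose to 0.12 (0.127). *Aacs* signals fell in the order of the mouse numbers in both genotypes. The labels name no pairs, so mice of the same number were not paired in the main fit. Their deviations correlated at 0.33, -0.11, 0.10 and 0.32, and 5 of 8 arrays correlated best with their own number. These values do not show that mice of the same number were independent. *Nr1h3* turned to -0.0012 under median normalization. The causes were not tested. The 19 probes were all flagged well above background on all 8 arrays. The flag alone does not exclude an effect of background, since *Acss3* carried it on all 8 arrays and its difference still fell under normexp.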

Other observations

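Beside the lipogenic genes, genes of the fasting list and the list for glucose use varied among mice of 1 genotype. Of 24 such genes tested, 9 were lowest among the WT mice in WT mouse 2, 8 lowest among the KO mice in KO mouse 3, and 6 in both. In a group of 4 mice each mouse can be lowest for a sizeable part of any gene set. The share over all genes tested is not given here, so these counts are not read as a pattern. Others of the lists went otherwise, since 9 of the 24 were highest among the KO mice in KO mouse 3. *G6pc*, which encodes the catalytic subunit of glucose-6-phosphatase, had log2 signals of 6.94, 5.30, 6.44 and 7.02 for WT mice 1 to 4 and 7.30, 7.37, 5.69 and 7.52 for KO mice 1 to 4. Its lowest WT and lowest KO mouse, WT mouse 2 and KO mouse 3, had the highest *Acss2* and *Fasn* signals of their genotype. For the others of the 10 lipogenic genes, these mice were not both highest. *Angptl4*, an inhibitor of lipoprotein lipase, was lowest in the same mice, with signals of 6.27, 4.94, 6.41 and 6.77 in WT and 6.00, 6.43, 4.97 and 6.51 in KO. *Txnip*, a thioredoxin-binding protein, was also lowest in them, with signals of 4.55, 3.64, 4.51 and 4.87 in WT and 4.08, 4.34, 3.70 and 4.48 in KO. These genes were singled out after their values were seen, and their part in the lipogenic values was not tested.

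The genes whose profile over the 8 arrays lay closest to that of *Aacs*, a search added after its wide spread was seen, were *Scd3* (root mean square distance 0.411 log2 units), *Nrep* (0.445), *Ccdc69* (0.463) and *Acacb* (0.492). *Scd3*, a stearoyl-CoA desaturase, had signals of 2.08, 1.30, 1.22 and 0.66 for WT mice 1 to 4 and 2.72, 2.44, 2.93 and 2.65 for KO mice 1 to 4, a difference of 1.37 (SE 0.27, limma adjusted p = 0.0841). The *Ccdc69* probe was well above background on 3 of the 4 WT arrays. WT mouse 1 was the highest and WT mouse 4 the lowest WT mouse for both *Aacs* and *Scd3*. *Scd3* has close relatives among the desaturase genes, and hybridization of their RNA to its probe was not tested.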
